A study of Mus musculus with 11 samples.

Results

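The immediate early genes Fos, Fosb, Jun, Junb, Egr1, Atf3, Nr4a1, Ier2, Dusp1 and Btg2 were followed through 11 RNA sequencing libraries of whole mouse heart. The genes are given by name, with no measured value in the rule that chose them, and all 10 of 10 were found among the 35584 genes of the deposited count table and among the 33318 genes of the deposited TPM table. All 10 were also among the 13884 genes that averaged 10 or more normalised counts across the libraries and were tested. Fos, Fosb, Jun, Junb, Egr1, Atf3 and Nr4a1 encode transcription factors that bind DNA. Dusp1 encodes a phosphatase, Btg2 a cofactor of the BTG and TOB family and Ier2 a nuclear protein of the same rapid response, so the set is named immediate early genes here and not transcription factors.

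All hearts came from male mice of 8 to 12 weeks of age, and polyA RNA was sequenced. The Macrophage-depleted group (n = 3 libraries) came from CD169-DTR mice, in which the receptor for diphtheria toxin is driven by the locus of CD169, a surface protein of tissue macrophages, and which had been depleted of macrophages for 21 days. Each injection held 0.01 µg of diphtheria toxin per g of body weight, and 3 were given weekly over 3 weeks. WT mice (n = 3) received the same injections and lack the receptor, so depletion and the CD169-DTR allele cannot be told apart between these groups. The Mertk-KO group (n = 2) lacks Mertk, a receptor with which phagocytes take up dying cells, and the LXR-DKO group (n = 3) lacks both liver X receptors, LXRα and LXRβ. The labels name no cell type for either deletion and are silent on toxin in both, so that genotype and toxin cannot be told apart there. Freshly removed hearts were frozen in liquid nitrogen, and neither the time of day nor the time between death and freezing is given in the sources used here. Nothing in the labels ties each library to a separate mouse, so the p-values below measure only how far these libraries differ, and that may be technical in part.

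Immediate early genes are transcribed within minutes of a stimulus without the synthesis of new protein. Growth factors, stretch, calcium, adrenergic signals and stress reach them through MAP kinases and protein kinase A, which act on serum response factor with its ETS partners and on CREB at their promoters. FOS and JUN family proteins pair through a leucine zipper to form AP-1, ATF3 pairs with JUN proteins or with itself, EGR1 is a zinc finger protein and NR4A1 an orphan nuclear receptor. Their messengers are short-lived. In heart they are known to be induced by pressure load, ischaemia and handling of the tissue, in cardiomyocytes as well as in fibroblasts, endothelial cells and macrophages.

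Promoters of immediate early genes are known to respond to cyclic AMP and calcium through the cyclic AMP response element (CRE, letters TGACGTCA) or its core (letters TGACG), which is shown here because it was the element that most of these promoters had in common. RefSeq promoter windows on GRCm38.p6 matched 8 of the 10 genes (all but Egr1 and Ier2). In the 250 bases before the start site, searched on both strands, 7 of the 8 windows held TGACG, against 17.8% of all 32851 windows of the same length. The whole CRE, each copy of which holds the core on both strands, was in 2 of the 8 (Btg2 and Dusp1) against 1.55% of all windows. The EGR letters GCGNGGGCG were in 3 of the 8 (Btg2, Fosb and Nr4a1) against 4.70%, and the AP-1 letters TGANTCA, the NR4A letters AAAGGTCA, the ETS letters CCGGAAG and the CArG box of serum response factor were in 0 of the 8, against 6.75%, 1.34%, 6.91% and 1.47% of all windows. Windows of 4 genes are printed below from 5′ to 3′ on the strand of the gene, chosen after they were seen for the number or completeness of their elements, and capitals mark TGACG or CGTCA, its reverse complement. They lie outside the annotated exons of their own gene. The Fos stretch (chr12:85473750-85473889, plus strand) ends at the base before the start site and holds the core at positions -129 and -66. The Nr4a1 stretch (chr15:101266606-101266845, plus strand) holds it at -233, -213, -69 and -40. The Btg2 stretch (chr1:134079256-134079335, minus strand) and the Dusp1 stretch (chr17:26508593-26508672, minus strand) hold the whole CRE at -166 and -143.
Fos: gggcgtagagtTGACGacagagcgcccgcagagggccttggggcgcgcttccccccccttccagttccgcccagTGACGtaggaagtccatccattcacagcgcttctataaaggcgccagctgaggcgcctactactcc
Nr4a1: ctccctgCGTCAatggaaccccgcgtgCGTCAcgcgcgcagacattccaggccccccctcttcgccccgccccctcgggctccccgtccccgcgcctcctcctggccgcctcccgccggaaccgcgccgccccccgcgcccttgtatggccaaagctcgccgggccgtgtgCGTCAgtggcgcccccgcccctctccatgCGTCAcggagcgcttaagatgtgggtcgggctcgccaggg
Btg2: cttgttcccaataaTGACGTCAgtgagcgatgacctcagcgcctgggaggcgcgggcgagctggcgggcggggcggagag
Dusp1: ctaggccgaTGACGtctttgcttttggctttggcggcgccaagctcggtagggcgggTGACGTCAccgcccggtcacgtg
A match of letters is a description of the window and was not tested for binding in these hearts, and a window with no match says only that the letters are not in it.

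Levels between genes were compared in TPM, the deposited measure per transcript length. By the median over the 11 libraries, Dusp1 was the most abundant of the 10 at 44.6 TPM, followed by Nr4a1 at 20.8, Jun at 18.2 and Btg2 at 17.7. Junb (10.8), Egr1 (10.8), Ier2 (9.49) and Fos (7.50) followed. Atf3 had a median of 3.04 TPM and Fosb of 0.325 TPM, so that Fosb was the least abundant of the 10 in each library. The ranges over libraries of every neighbouring pair in this order overlapped. The phosphatase Dusp1 led in 10 of the 11 libraries, and Jun led in Mertk-KO 1 with 50.8 TPM. The distance between the lowest and the highest library was 19.2-fold for Fos, 15.6-fold for Nr4a1, 14.8-fold for Fosb, 12.9-fold for Atf3 and 8.43-fold for Egr1, but 2.30-fold for Dusp1 and 3.09-fold to 3.61-fold for Ier2, Btg2, Jun and Junb.

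Values within a gene are given below as normalised counts, which are estimated reads scaled to the mean library size. Fos (GRCm38 chromosome 12, 85473890 to 85477273), the founding member of AP-1, was at 216, 46.1 and 484 normalised counts in the WT libraries. It was at 77.4, 26.9 and 31.7 in the Macrophage-depleted libraries, 268 and 543 in the Mertk-KO libraries and 159, 124 and 155 in the LXR-DKO libraries. The WT libraries thus spanned 10.5-fold and covered most of the range of the other groups, and WT 2 lay below the highest Macrophage-depleted library.

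Its paralogue Fosb (chromosome 7, 19302696 to 19310051) followed the same order in WT, with 8.51, 2.05 and 35.6 normalised counts. It had 8.45, 4.95 and 10.1 in Macrophage-depleted, 34.5 and 61.4 in Mertk-KO and 13.9, 14.5 and 19.5 in LXR-DKO. Fosb rested on few reads: 2 estimated reads in WT 2 and 57 in Mertk-KO 2 were the extremes, and a count of 0 allows up to 3 reads, a floor of 2.12 to 4.22 normalised counts depending on the library.

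Jun (chromosome 4, 95049034 to 95052222), the partner that FOS proteins need to bind DNA well, was at 660.5, 581 and 861 normalised counts in WT and at 833, 857 and 707 in Macrophage-depleted. The Mertk-KO libraries disagreed, with 1998 in Mertk-KO 1 and 865 in Mertk-KO 2, and the latter lay beside the highest WT library. The LXR-DKO libraries were at 616, 617 and 568. Junb (chromosome 8, 84974484 to 84978718), a JUN protein that can oppose JUN at some genes, ranged from 153 in Macrophage-depleted 3 to 552 in WT 3. Both Mertk-KO libraries (323 and 534) lay above the Macrophage-depleted and LXR-DKO libraries, while every other pair of groups overlapped. Its exons share 173 bases, 7.52% of their length, with Prdx2 on the opposite strand, which is at 3108 to 4324 normalised counts. The use of strand in the counting is stated in none of the sources used here, so Junb is uncertain by the part that such reads could add. Jun shares 232 bases, 7.28%, with its antisense gene Junos, which is at 1.21 to 11.6 normalised counts.

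Atf3 (chromosome 1, 191170296 to 191218039), a stress-induced repressor of the ATF family, was low in WT, at 29.8, 29.7 and 80.7 normalised counts, and at 64.8, 53.7 and 35.3 in Macrophage-depleted. Mertk-KO 1 had 296 and Mertk-KO 2 had 213, and the LXR-DKO libraries had 66.7, 77.2 and 57.6. Both Mertk-KO libraries lay above all other 9 libraries, the lower of them 2.64-fold above the highest of the others.

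Nr4a1 (chromosome 15, 101254269 to 101274795), also known as Nur77, was at 197, 85.0 and 809 normalised counts in WT and at 601, 204 and 215 in Macrophage-depleted. The Mertk-KO pair was close together at 1367 and 1398, and the LXR-DKO libraries were at 624, 718 and 585. Each Mertk-KO value exceeded all others, while the LXR-DKO values lay inside the WT range. Egr1 (chromosome 18, 34859823 to 34864984), which activates growth and matrix genes, was at 691, 235 and 961 in WT, 459, 246 and 180 in Macrophage-depleted, 384 and 1598 in Mertk-KO and 396, 355 and 620 in LXR-DKO. Both the 4.08-fold span within WT and the 4.17-fold span within the Mertk-KO pair exceeded the ratio of any pair of group means.

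Dusp1 (chromosome 17, 26505590 to 26562128) removes phosphate from MAP kinases and so closes the loop that induces the other genes. It ranged from 533 normalised counts in WT 2 to 1305 in WT 3, and every library of the other groups lay between these. Btg2 (chromosome 1, 134075170 to 134079120), an antiproliferative protein that also speeds the removal of poly(A) tails, was at 512, 319 and 968 in WT and at 550.4, 440.5 and 396 in Macrophage-depleted. It was at 1101 and 1131 in Mertk-KO, above all other libraries, and at 594, 625 and 605 in LXR-DKO. Ier2 (chromosome 8, 84661331 to 84662852) was at 192, 131 and 253 in WT, 163, 127 and 104 in Macrophage-depleted, 190 and 339 in Mertk-KO and 177, 170 and 159 in LXR-DKO.

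**Figure D1:**
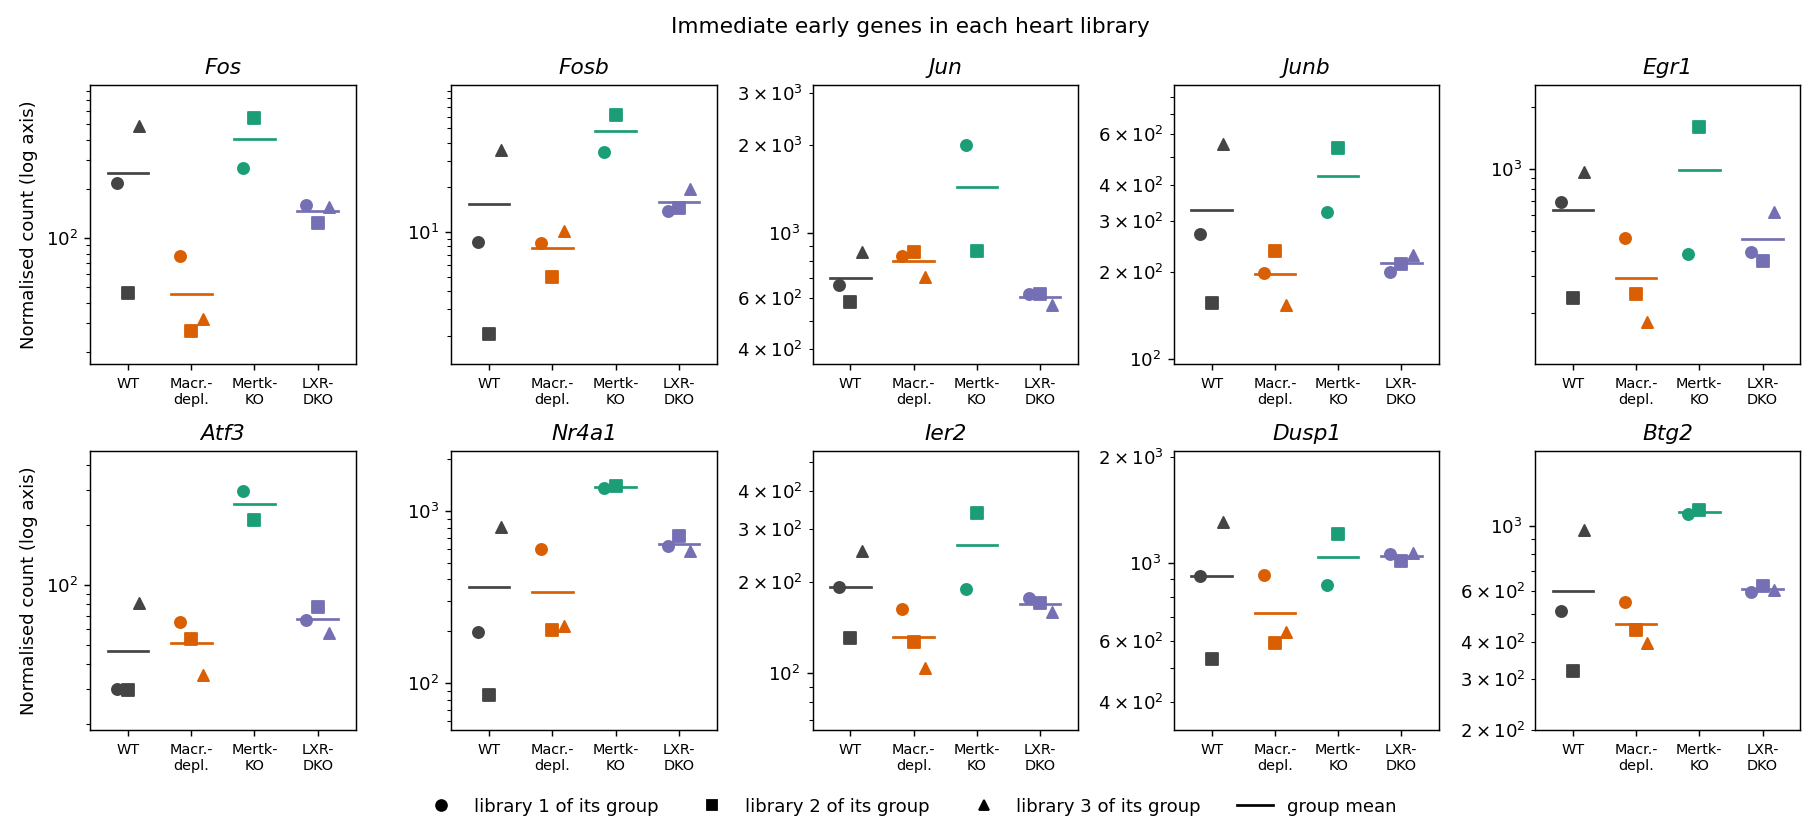
Normalised count (log axis) of each of the 10 genes in each library, by group; symbols mark the library's number in its group and lines the group mean. WT 3 is the highest and WT 2 the lowest WT library in every panel, the LXR-DKO libraries lie close together except for Egr1 (355 to 620), and both Mertk-KO libraries lie above all others for Jun, Atf3, Nr4a1 and Btg2.

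The same library was at the same end of the WT group for all members. WT 2 was the lowest WT library for 10 of 10 genes and WT 3 the highest for 10 of 10, whereas over all tested genes WT 2 was the lowest for 33.3% and WT 3 the highest for 32.1%. In TPM the counts were 9 and 10. The 10 genes summed to 3692 normalised counts in WT 1, 2119 in WT 2 and 6309 in WT 3, to 3882, 2786 and 2467 in the Macrophage-depleted libraries, to 6827 and 7893 in Mertk-KO and to 3906, 3929 and 4068 in LXR-DKO. The LXR-DKO sums differed by 4.14% between the lowest and the highest library, against a ratio of 2.98 within WT. Within the Mertk-KO pair, Mertk-KO 1 was the higher library for Jun and Atf3 and Mertk-KO 2 for the other 8 genes. Over all tested genes Mertk-KO 2 was the higher for 53.9%. Macrophage-depleted 1 was the highest of its group for 7 of the 10, which included Fos, Egr1, Nr4a1 and Dusp1, against 32.7% of all tested genes.

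The spread within a group, as the SD of log2(normalised count + 1), was therefore set beside that of all tested genes as a description. In WT the median SD of the 10 genes was 0.864 against 0.113 over all tested genes, and Fosb (1.8), Fos (1.71) and Nr4a1 (1.64) had SDs above those of 99.7% of tested genes. In Macrophage-depleted the medians were 0.394 and 0.140, and in Mertk-KO 0.544 and 0.199. In LXR-DKO the median of the 10 genes, 0.123, was no larger than the 0.145 of all tested genes. The SDs there ran from 0.0374 for Btg2 and 0.0398 for Dusp1, which had 0.802 and 0.650 in WT, to 0.253 for Fosb and 0.425 for Egr1, the latter above that of 89.8% of tested genes. Among genes of like level over all groups, the within-group SD of each of the 10 genes exceeded that of 95.4% to 99.8% of the others.

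**Figure D2:**
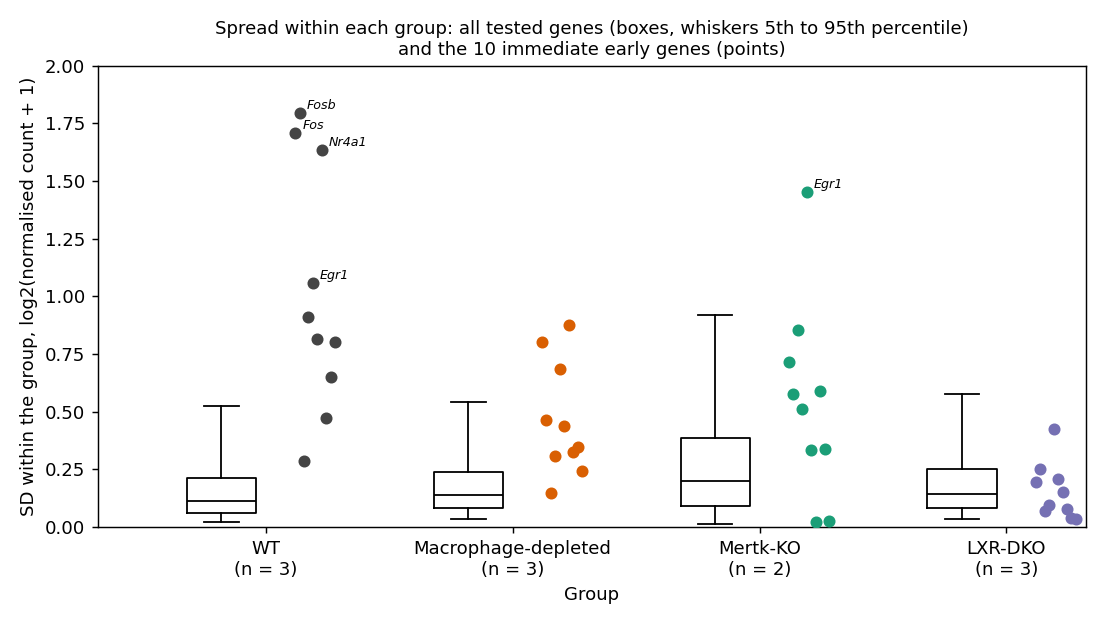
SD within each group of log2(normalised count + 1) for all 13884 tested genes (boxes with median and quartiles, whiskers from the 5th to the 95th percentile) and for the 10 immediate early genes (points). In WT the median of the points is 0.864 against 0.113 for all genes, and in LXR-DKO 0.123 against 0.145.

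Across the 11 libraries most of the 10 genes went up and down together, and Jun followed the others least. All 45 pairs of them had a Pearson correlation of log2 values above 0, with a median of 0.781, a lowest value of 0.0537 (Jun with Dusp1) and a highest of 0.945 (Fosb with Btg2). The gene closest to the mean profile of the 10 was Btg2 at 0.988, and Jun was the farthest from it at 0.519. Each of the 10 genes is itself part of that mean, which raises its value relative to genes outside the set. These values are descriptions over 11 libraries that include the differences between groups. Correlations over all pairs of tested genes were not computed. Among the tested genes outside the set, leaving out predicted gene models, Ppp1r15a had the profile most like that of the 10 (r = 0.923, n = 11 libraries), followed by Nudt6 (0.906), Ptcd2 (0.888), Tsfm (0.879), Fbxo6 (0.877), Dok3 (0.876), Nr4a2 (0.874) and Derl1 (0.870). Ppp1r15a encodes a phosphatase cofactor of the stress response and Nr4a2 is a paralogue of Nr4a1. Ppp1r15a ranged over 257 to 415 normalised counts, so its range was much narrower than that of Fos.

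**Figure D3:**
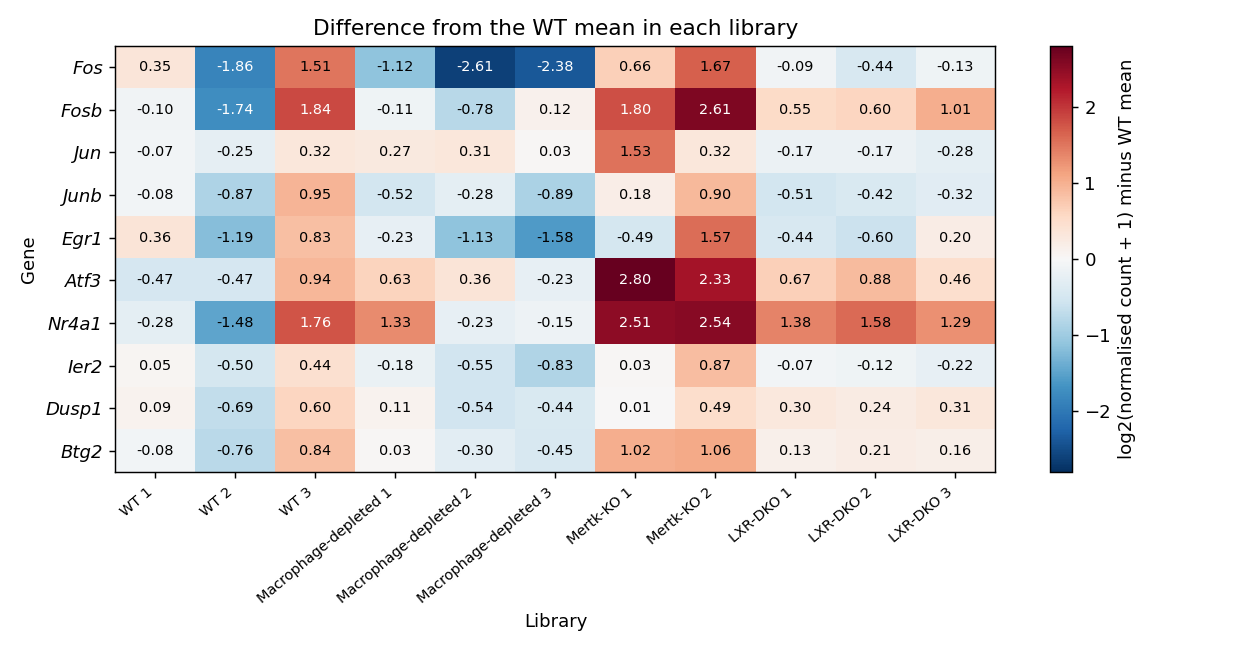
Difference of each library from the WT mean in log2(normalised count + 1) for the 10 genes (rows) in the 11 libraries (columns), with the value in each cell; red is above and blue below the WT mean. WT 2 is blue and WT 3 red in all rows, Fos is from -1.12 to -2.61 in Macrophage-depleted, and Atf3 and Nr4a1 lie between 2.33 and 2.80 in both Mertk-KO libraries.

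The first comparison sets the Mertk-KO libraries beside the toxin-treated WT libraries. The labels are silent on toxin in Mertk-KO, so genotype and toxin cannot be told apart in this comparison. In the Mertk-KO libraries 3 of the 10 genes rose over WT, Atf3 by 5.93-fold, Nr4a1 by 5.77-fold and Jun by 1.90-fold, and none fell. Of all tested genes 9.27% passed the same test in this comparison, that is 3.38% of all tested genes as higher and 5.89% as lower. Atf3 had a log2 fold change of 2.57 (SE 0.39, limma adjusted p 0.00973), Nr4a1 of 2.53 (SE 0.70, adjusted p 0.0447) and Jun of 0.93 (SE 0.27, adjusted p 0.049999, just under the threshold of 0.05). Btg2 (1.04, SE 0.32, adjusted p 0.0606) and Fosb (2.21, SE 0.77, adjusted p 0.0875) did not pass. The remaining 5 genes had differences from 0.25 for Dusp1 to 1.17 for Fos, with intervals that included 0. All 10 differences were above 0, as were 48.3% of all tested genes, and their median was 0.98 against -0.02 over all genes. For Jun, Atf3, Nr4a1 and Btg2 both Mertk-KO libraries lay above all WT libraries, which held for 21.4% of tested genes. The messenger of a bulk tissue cannot tell more cells that hold a transcript from more transcript per cell.

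The 3 calls were not equally firm. Atf3 passed in 21 of 23 alternative analyses, including each of the 11 that left out 1 library (adjusted p 0.00166 to 0.0397), and failed with only these 2 groups in the fit (adjusted p 0.0804) or with weights per library (0.0931). Nr4a1 passed in 8 of 23 and kept its call only without WT 3 or without Macrophage-depleted 1; without any of the other 9 libraries its adjusted p was 0.0549 to 0.117, and its log2 difference was 1.79 without WT 2 and 3.41 without WT 3. Jun passed in 4 of 23, and without Mertk-KO 1 its difference was 0.32 (adjusted p 0.264) while without Mertk-KO 2 it was 1.53 (adjusted p 0.000105). Without WT 3, Btg2 (1.46, adjusted p 0.0176) and Fosb (3.13, adjusted p 0.0486) passed as well. With 1 Mertk-KO library left, that library is assumed to vary like those of the other groups.

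Depletion of macrophages was compared with the toxin-treated WT hearts. None of the 10 genes passed (0 of 10), against 0.238% of all tested genes, and 7 of the 10 differences were below 0, against 49.2% of all genes. At an unadjusted p under 0.05, limma gave 1 of the 10, Fos, against 7.53% of all genes, and with voom weights the count of adjusted calls was 0 as well. The log2 difference of Fos was -2.04 (SE 0.66, adjusted p 0.398), with a mean of 45.3 ± 27.9 normalised counts (SD, n = 3) against 249 ± 221 (SD, n = 3) in WT. Fos was lower than WT 1 and WT 3 in each Macrophage-depleted library, but WT 2 overlapped them. Without WT 2 the difference was -2.97 and passed (adjusted p 0.0466), the only call among the 10 genes in 23 alternatives, and without WT 3 it was -1.28 (adjusted p 0.851). Egr1 (-0.98, SE 0.57), Junb (-0.56, SE 0.35) and Ier2 (-0.52, SE 0.25) had adjusted p-values of 0.699 to 0.844, and Atf3 (0.25, SE 0.35), Nr4a1 (0.32, SE 0.63) and Jun (0.20, SE 0.24) lay slightly above 0 within their errors. The 95% intervals were wide: that of Nr4a1 ran from -1.05 to 1.68 and that of Fosb from -1.77 to 1.25, so changes of such size were not detectable here.

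Libraries of the LXR-DKO group were compared with the same WT libraries, and genotype and toxin cannot be told apart here either. None of the 10 genes passed (0 of 10), against 0.418% of all tested genes, in the fit as described and in all 23 alternatives. At an unadjusted p under 0.05, limma gave 1 of the 10, Nr4a1, against 11.5% of all genes. Nr4a1 was at 642 ± 68.4 normalised counts (SD, n = 3) against 364 ± 390 (SD, n = 3) in WT, a log2 difference of 1.42 (SE 0.63, adjusted p 0.419), with all 3 LXR-DKO libraries inside the WT range. This difference was 0.68 without WT 2 (adjusted p 0.794) and 2.30 without WT 3 (adjusted p 0.0748). Atf3 differed by 0.67 (SE 0.35, adjusted p 0.490). The other 8 genes had differences from -0.42 (Junb) to 0.72 (Fosb), and 5 of all 10 lay on each side of 0, where 50.2% of all genes were above it. Since the 3 comparisons share the WT libraries, and the 10 genes varied more within WT than in any other group by their median SD, the errors of all 3 carry that spread.

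**Figure D4:**
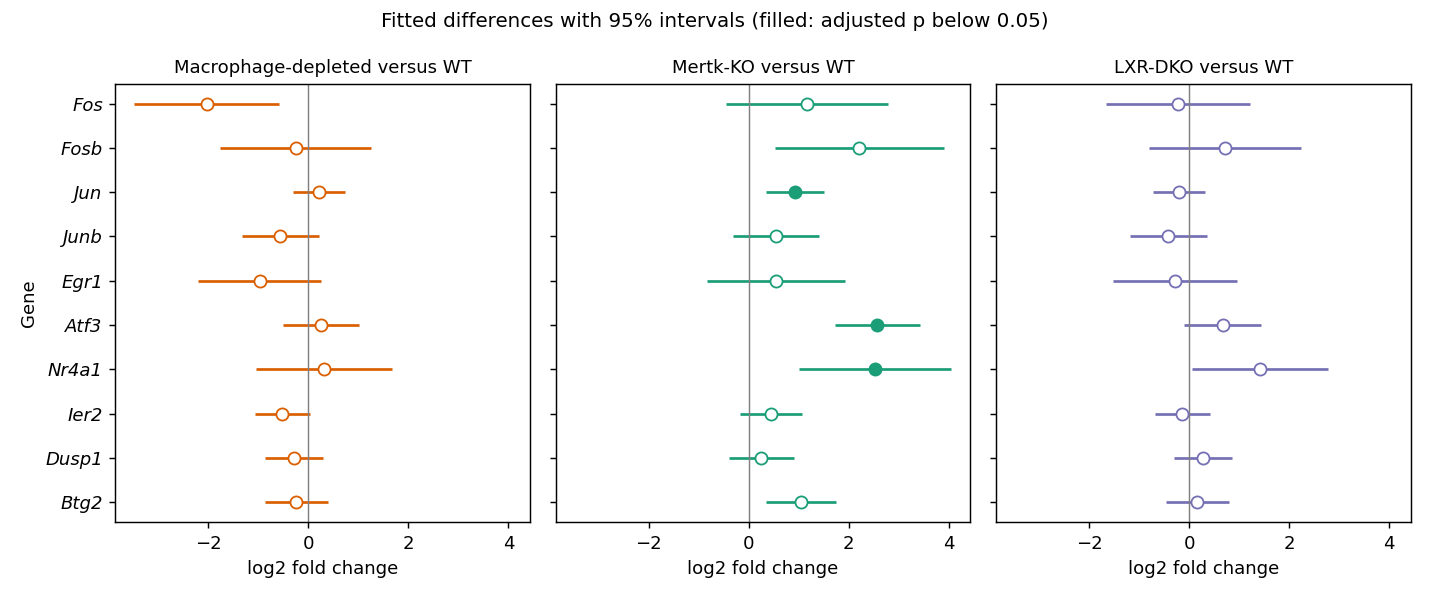
Fitted log2 fold change (points) with 95% interval (lines) of each gene against WT in the 3 other groups; filled points have an adjusted p below 0.05. Filled are Jun, Atf3 and Nr4a1 in Mertk-KO, at 0.93, 2.57 and 2.53; in the other groups no point is filled, and Fos lies at -2.04 in Macrophage-depleted.

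The groups other than WT were also compared directly, and these comparisons share libraries with those above. Mertk-KO was higher than Macrophage-depleted in 6 of the 10 genes, where 21.0% of all tested genes passed and 9.39% passed as higher. Fos had a log2 difference of 3.21 (SE 0.74, limma adjusted p 0.0138), Fosb of 2.46 (SE 0.77, adjusted p 0.0420), Atf3 of 2.31 (SE 0.39, adjusted p 0.00432) and Nr4a1 of 2.21 (SE 0.70, adjusted p 0.0428). Btg2 differed by 1.28 (SE 0.32, adjusted p 0.0187) and Ier2 by 0.97 (SE 0.28, adjusted p 0.0327). For 8 of the 10, all but Egr1 and Dusp1, the libraries of the groups did not overlap, which held in this direction for 22.6% of tested genes. Atf3 kept its call whichever of the 11 libraries was left out, and Fos lost it only without Macrophage-depleted 2 (adjusted p 0.0508). Btg2 lost it without Macrophage-depleted 2 or 3 (0.0562 and 0.0557), and Ier2 without these (0.0834 and 0.0975) or without Mertk-KO 2 (0.201). Fosb lost its call without 9 and Nr4a1 without 8 of the 11 libraries (adjusted p up to 0.147 and 0.128). Without Mertk-KO 1, Egr1 (2.55, adjusted p 0.0166) and Junb (1.47, adjusted p 0.0450) passed; Junb also passed without WT 2 (0.0303) or WT 3 (0.0220), and Jun without Mertk-KO 2 (1.33, adjusted p 0.000225).

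Mertk-KO was higher than LXR-DKO in 2 of the 10 genes, with log2 differences of 1.90 for Atf3 (SE 0.39, limma adjusted p 0.0345) and 1.13 for Jun (SE 0.27, adjusted p 0.0483). Over all genes 2.46% passed in this comparison and 0.684% passed as higher. Atf3 lost this call without Macrophage-depleted 2, Mertk-KO 1 or any LXR-DKO library (adjusted p 0.0527 to 0.102), and Jun kept it only without Mertk-KO 2 (1.73) and had 0.53 without Mertk-KO 1. With only these 2 groups in the fit, Atf3 (adjusted p 0.0315), Nr4a1 (1.11, adjusted p 0.0290) and Btg2 (0.88, adjusted p 0.0343) passed and Jun did not (adjusted p 0.277). LXR-DKO and Macrophage-depleted differed in 0 of the 10 genes, against 3.24% of all genes. At an unadjusted p under 0.05 limma gave 1, Fos (log2 difference 1.82, SE 0.66, adjusted p 0.148), against 20.5% of all genes, and voom weights gave 0 adjusted calls. The LXR-DKO libraries lay above all Macrophage-depleted libraries for Fos, Fosb, Dusp1 and Btg2 and below them for Jun. The share of all tested genes without overlap is not given here for this comparison. Fos passed without WT 2 (adjusted p 0.0498). With only these 2 groups in the fit, Fos passed as higher (limma adjusted p 0.0160) and Jun as lower (limma adjusted p 0.0416) in LXR-DKO.

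The balance within AP-1 and ATF3 was described from TPM. Jun held 27.4% to 60.0% of the summed TPM of Fos, Fosb, Jun, Junb and Atf3, and was the largest share in 9 of the 11 libraries. Fos held 25.2%, 7.77% and 28.7% of it in the WT libraries, 12.3%, 3.01% and 5.75% in Macrophage-depleted, 12.7% and 26.9% in Mertk-KO and 21.1%, 17.2% and 20.8% in LXR-DKO. Its ratio to Jun was close to 1 in WT 3 (0.966) and Mertk-KO 2 (0.979) and lowest in Macrophage-depleted 2 (0.0502). Atf3 held 17.3% and 13.4% in Mertk-KO, above all other libraries, and 2.97% to 6.47% in WT. The sum itself was lowest in WT 2, at 26.5 TPM, and highest in Mertk-KO 1, at 95.1 TPM. These shares are of transcripts, and the proteins were not measured.

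**Figure D5:**
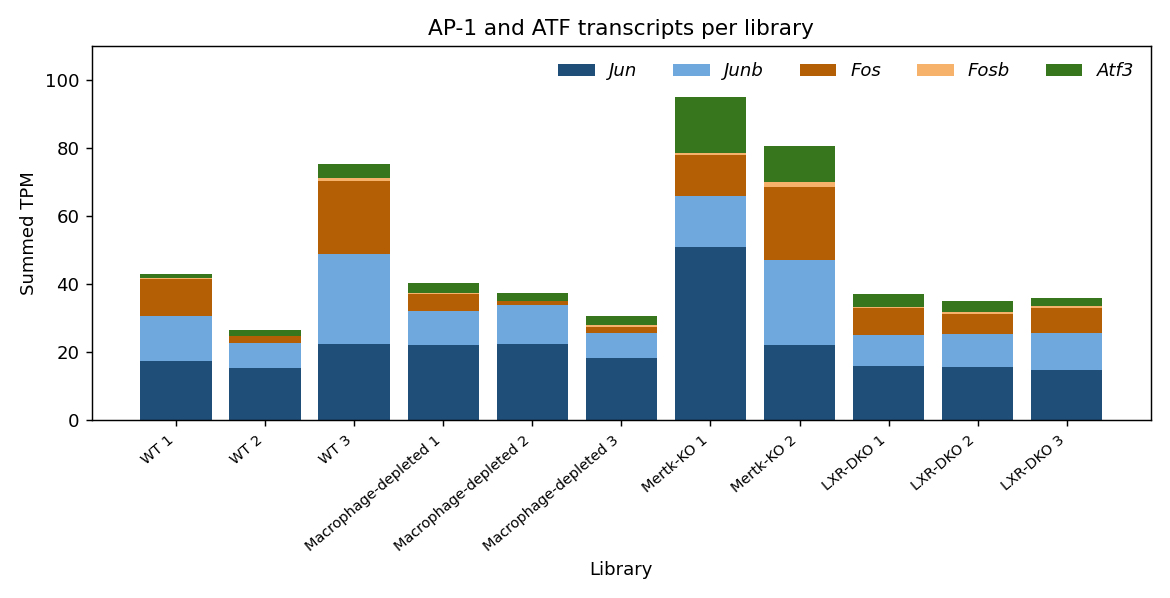
Summed TPM of Jun, Junb, Fos, Fosb and Atf3 in each library, stacked by gene. The sum runs from 26.5 TPM in WT 2 to 95.1 TPM in Mertk-KO 1, Fos is a thin layer in the Macrophage-depleted libraries (3.01% to 12.3% of the sum), and Atf3 takes 17.3% and 13.4% in Mertk-KO.

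Relatives and neighbours of the 10 genes in the pathway were counted by lists. Beside these counts stand the shares of all tested genes that limma called against WT. They were 3.38% higher and 5.89% lower in Mertk-KO, and 0.238% in Macrophage-depleted and 0.418% in LXR-DKO in either direction. An unadjusted p under 0.05 was reached by 28.6%, 7.53% and 11.5% in these groups, in that order. Of 14 tested relatives or partners of the AP-1 and ATF members (other AP-1, ATF and small MAF genes, with Creb1 and Bach1 among them), 1 rose in Mertk-KO against WT and 1 fell. Atf4, the factor of the amino acid and endoplasmic reticulum stress response, rose by a log2 difference of 0.49 (SE 0.10, limma adjusted p 0.0215), and Creb1, which binds the CRE, fell by 0.71 (SE 0.15, adjusted p 0.0205). The list's median was 0.11 in that comparison against -0.02 over all genes. Fosl2, the FOS protein with the longer-lived response, had 336, 323 and 365 normalised counts in WT and 1106 in Mertk-KO 1 but 425 in Mertk-KO 2 (1.01, SE 0.30, adjusted p 0.0560). None of the 14 passed in Macrophage-depleted or LXR-DKO against WT, with medians of 0.11 and -0.03. At an unadjusted p under 0.05 limma gave 0 in Macrophage-depleted and 1 in LXR-DKO (Bach1, lower).

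Of the EGR and NR4A paralogues and EGR corepressors, 5 of 7 were tested and none passed against WT in any group (limma). At an unadjusted p under 0.05, Egr2 (1.23, SE 0.49) and Nr4a2 (1.07, SE 0.49) were higher in Mertk-KO, where 28.6% of all genes reached that level in either direction, and none of the 5 in the other 2 comparisons. Nr4a3 was at 223 normalised counts in Mertk-KO 1 and at 15.9 in Mertk-KO 2, against 20.2 to 25.6 in WT. Of the 15 tested genes listed with Dusp1, Btg2 and Ier2 by family or by name, 1 rose in Mertk-KO. It was Dusp5, which acts on ERK in the nucleus (0.97, SE 0.25, limma adjusted p 0.0361). Another gene of this list, Ier3, which shares the name of Ier2 and guards against cell death, rose in Macrophage-depleted (0.73, SE 0.13, limma adjusted p 0.0480). It went from 227 to 247 normalised counts in WT to 366 to 439. None of the 15 passed in LXR-DKO, where limma gave 2 at an unadjusted p under 0.05, Dusp5 higher and Dusp16 lower.

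Other immediate early genes divided. Of 38 tested, 6 rose in Mertk-KO against WT and 0 fell, beside 3.38% and 5.89% of all tested genes, and the median was 0.12. Sik1, a kinase induced by cyclic AMP, rose by 1.89 (SE 0.33, limma adjusted p 0.0128), from 239 to 444 normalised counts in WT to 1810 and 713. Plk3, a kinase of the stress response, rose by 1.32 (SE 0.29, adjusted p 0.0240), Irf1, the interferon-induced factor, by 1.31 (SE 0.30, adjusted p 0.0281) and Klf2, the flow-induced factor of endothelium, by 1.13 (SE 0.27, adjusted p 0.0316). Csrnp1 (0.93, adjusted p 0.0235) and Klf4 (0.73, adjusted p 0.0498) were the other 2. The Mertk-KO libraries again split: Klf2 was at 894 and 443 and Irf1 at 466 and 1309. In Macrophage-depleted and LXR-DKO none of the 38 passed against WT. There limma gave 15 and 7 at an unadjusted p under 0.05, beside 7.53% and 11.5% of all tested genes.

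Among 32 upstream regulators, 2 rose and 3 fell in Mertk-KO against WT, where 3.38% of all tested genes rose and 5.89% fell. None passed in the other groups (limma, with 1 and 0 at an unadjusted p under 0.05). Srf, which encodes serum response factor, rose by 0.50 (SE 0.14, adjusted p 0.0425) and Mapkapk2, a kinase downstream of p38, by 0.33 (SE 0.07, adjusted p 0.0264). Rps6ka3 (RSK2) fell by 0.62 (SE 0.12, adjusted p 0.0183), Rps6ka5 (MSK1) by 0.66 (SE 0.18, adjusted p 0.0436) and Braf by 0.71 (SE 0.19, adjusted p 0.0394). The list's median in Mertk-KO was -0.06.

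Several other measures also differed between libraries or groups, and their part in the results was not tested. Of 13 heat shock genes, 9 rose and 1 fell in Mertk-KO against WT, beside 3.38% and 5.89% of all tested genes. None passed in Macrophage-depleted or LXR-DKO. There limma gave 0 and 1 at an unadjusted p under 0.05, beside 7.53% and 11.5% of all tested genes. The inducible chaperone Hspa1a was at 21.2 to 57.4 normalised counts in WT but reached 2007 in Mertk-KO 1 and 105 in its pair, Mertk-KO 2, and Hspa1b at 19.7 to 43.2 but at 1995 and 75.4; these near-identical genes share reads, so their split is uncertain. Mertk-KO 1 was also the higher library for Jun, Atf3, Fosl2, Nr4a3 and Sik1. Mertk-KO 2 was the higher for the other 8 of the 10 immediate early genes, and for Irf1, Nr4a2 and Egr2. Within WT, the heat shock genes had a median offset from the group mean of -0.06, 0.02 and 0.03 in the 3 libraries. Single genes could differ more than this median. Hspa1a was at 21.2, 39.0 and 57.4 normalised counts in WT 1, WT 2 and WT 3, and Hspb1 at 1639, 1404 and 1475. Of 15 circadian clock genes, 2 fell in Mertk-KO, Nr1d2 and Per3, beside 5.89% of all tested genes. None passed in Macrophage-depleted or LXR-DKO, where limma gave 13 and 2 at an unadjusted p under 0.05. Over all tested genes these shares were 7.53% and 11.5%. Relative to the WT mean, the clock list had a median difference of -0.26, 0.17 and 0.15 in the WT libraries. Per1 was at 224, 453 and 572 normalised counts there, and Arntl at 200, 73.7 and 69.2. The 10 immediate early genes had -0.07, -0.81 and 0.89 there. The clock list was at 0.60, 0.52 and 0.59 in the Macrophage-depleted libraries, 0.03 and -0.87 in Mertk-KO and -0.45, -0.29 and -0.17 in LXR-DKO. In Mertk-KO against Macrophage-depleted, the comparison with 6 calls among the 10 genes, 9 of the 13 heat shock genes were called higher. Of the clock genes 9 were called lower and 1 higher there. Over all tested genes 21.0% were called in that comparison, and 9.39% were called as higher. In LXR-DKO against Macrophage-depleted 6 clock genes were called lower and 1 higher, beside 3.24% of all tested genes in either direction. Of 10 glucocorticoid-responsive genes, 1 fell in Mertk-KO, Klf9, beside 5.89% of all tested genes. None passed in Macrophage-depleted or LXR-DKO. There limma gave 3 and 2 at an unadjusted p under 0.05, beside 7.53% and 11.5% of all tested genes. The median difference of this list from the WT mean was -0.25, 0.04 and 0.17 in the WT libraries. In the Mertk-KO and LXR-DKO libraries, differences from the WT mean went with transcript length (Spearman rho across genes -0.255 and -0.50, and -0.142 to -0.374). In Macrophage-depleted they did so in the opposite direction in library 2 (rho 0.224) and little in libraries 1 and 3 (-0.0365 and 0.0604). The median longest transcript was 2433 bases for the 10 genes and 3381 bases for all tested genes. With that trend removed, Atf3 alone of the 10 passed in Mertk-KO against WT (log2 difference 2.51, adjusted p 0.0148), where Nr4a1 had 2.52 (adjusted p 0.0708) and Jun 0.96 (adjusted p 0.0876), beside 2.53 and 0.93 with the trend kept. Against Macrophage-depleted, Fos (3.13, adjusted p 0.0214), Atf3 (2.23, adjusted p 0.00724) and Btg2 (1.27, adjusted p 0.0283) passed with the trend removed.

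Cell type markers were checked beside these results. The 8 cardiomyocyte markers summed to 782827 to 940554 normalised counts over all libraries, so the tissue label was met by its defining markers. The 9 macrophage markers summed to 2320 to 2688 in WT, 565 to 1656 in Macrophage-depleted, 2679 to 3683 in Mertk-KO and 1894 to 2452 in LXR-DKO. Timd4 and Cd163 fell in Macrophage-depleted, and all 9 were lower there than in WT by their fitted difference. The 5 atrial markers summed to 3465 to 25595 in WT, 3159 to 6232 in Macrophage-depleted, 1675 to 3002 in Mertk-KO and 1612 to 17498 in LXR-DKO. The 6 neutrophil markers summed to at most 117 and the 5 T cell markers to at most 23.6, and no T cell marker reached the minimum for testing. Of the 47 tested markers of ventricular and atrial cardiomyocytes, fibroblasts, endothelium, mural cells, neutrophils, B cells, erythrocytes and adipocytes, none passed against WT in any group (limma). At an unadjusted p under 0.05 there were 12 in Macrophage-depleted, 9 in Mertk-KO and 5 in LXR-DKO, beside 7.53%, 28.6% and 11.5% of all tested genes. The 4 tested atrial markers had median log2 differences of -0.98, -4.10 and -1.69 in these groups, and the 4 tested adipocyte markers of -1.86, -0.26 and 0.59. Between the other groups some markers were called. In Mertk-KO against Macrophage-depleted 7 of the 9 macrophage markers were called higher, beside 9.39% of all tested genes. Of the 47 other markers 7 were called in either direction (21 at an unadjusted p under 0.05), a share below the 21.0% of all tested genes. Among them were 2 of 4 adipocyte and 2 of 6 endothelial markers higher and 1 of 6 fibroblast markers lower. In LXR-DKO against Macrophage-depleted 4 of the 9 macrophage markers were called higher. Of the 47, 5 were called, beside 3.24% of all tested genes, and 19 were at an unadjusted p under 0.05, beside 20.5%. The 5 included all 4 tested adipocyte markers. The part of these cell types in the levels of the 10 genes was not tested.

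Libraries held 10938600 to 20722295 estimated reads, and replicate libraries correlated across genes, on the log scale, at 0.959 (the Mertk-KO pair) to 0.987. Siglec1, which encodes CD169, was at 53.4 to 64.3 normalised counts in WT and at 33.8, 2.12 and 0.719 in Macrophage-depleted. Macrophage-depleted 1 thus kept more of it. That library was also the highest of its group for 7 of the 10 immediate early genes, and a link between these was not tested. The genes deleted in LXR-DKO, Nr1h3 for LXRα and Nr1h2 for LXRβ, were at 25.9 to 29.0 and 85.2 to 99.6 in LXR-DKO against 155 to 173 and 525 to 543 in WT. Mertk was at 75.7 and 89.4 in Mertk-KO and 130 to 147 in WT. It was at 125, 93.3 and 75.4 in Macrophage-depleted and at 93.6, 103 and 100 in LXR-DKO. This level alone therefore does not set the Mertk-KO libraries apart. A count over the whole gene does not show which part of the transcript an allele lacks.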

How the data were processed

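RNA was isolated with Trizol and amplified before library construction (Ovation kit of NuGen), per the labels' protocols. Software listed in the submitters' processing notes comprises CASAVA 1.8.2, cutadapt, RSEM 1.2.20 and kallisto 0.43.1, beside the genome GRCm38, and no role is stated for any of them. The tool behind either table, its scaling and its use of strand are therefore "not given in the sources used here". Both tables were deposited by the authors as a signal per gene. One is a normalised count, on a per-million scale set by an effective size of each library and raised by 0.5 read in every gene (as its values show), and the other is a normalised TPM whose columns were rescaled. The added part was removed to give estimated reads. Of the low values 59.1% to 62.8% were whole within 0.01 read, so the count test planned for whole counts was not run. Estimated reads were scaled to the mean effective size. Genes with a mean of at least 10 were tested with limma 3.58.1 in R 4.3.3 (lmFit, contrasts, eBayes with trend) on log2(normalised count + 1), with the 4 groups in 1 fit (7 residual degrees of freedom), two-sided, with Benjamini-Hochberg adjustment over the 13884 genes of each of the 6 comparisons and a threshold of 0.05. This scale understates changes of low genes. The test was tried on simulated data. Reads carry no molecular identifiers after amplification, so they are not independent molecules and the floor of 3 reads covers counting error only. The text names all 10 genes, the 4 targeted genes, up to 5 genes of each list with the smallest p in each comparison with WT, and the 8 genes most like the set; others, and genes that share exons with a member, were named after their values were seen. The members and all lists were chosen with earlier results of these data known. Positions come from GENCODE M21 on GRCm38. Alternatives were another pseudocount, filter, scaling, table, weighting and set of groups, a replicate block, removal of the trend with transcript length and each library left out; the deposited per-million values and voom weights were added after the data were seen.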

Additional observations from a re-analysis of the deposited data

How the results depend on the processing

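Over the 23 alternatives and 6 comparisons, 1233 fold changes of single members kept direction and side of the threshold, 102 no longer passed, 13 newly passed and 20 changed sign. In Mertk-KO against WT, 3 of the 10 genes passed; the count was 1 without a filter on low values, in the TPM table, with the replicate block and with the trend with transcript length removed, 0 with only the 2 groups compared and with weights per library, and 1 to 4 with 1 library left out. In Mertk-KO against Macrophage-depleted, 6 passed; the count was 3 without the filter, in the TPM table, with only the 2 groups and with the length trend removed, 0 with weights per library, and 1 to 7 with 1 library left out. In Mertk-KO against LXR-DKO, 2 passed; the count was 0 without the filter, with weights per library and with the replicate block, 1 in the TPM table, with the length trend removed and with voom weights, 3 with only the 2 groups, and 0 to 2 with 1 library left out. In LXR-DKO against Macrophage-depleted, 0 passed; the count was 2 with only the 2 groups, and 0 to 1 with 1 library left out. In Macrophage-depleted against WT it was 0 to 1 with 1 library left out, and in LXR-DKO against WT 0 throughout. Fosb lies below the minimum of 50 and that of the TPM table and has 21 alternatives. The cause of these differences was not tested, except that leaving out groups or libraries leaves fewer samples.

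The background moved too: over all genes, 1287 passed in Mertk-KO against WT, 597 without the filter, 378 in the TPM table, 391 with the replicate block, 285 with the length trend removed, 12 with weights per library, 1 with only the 2 groups, and 70 to 2399 with 1 library left out. Same-numbered libraries did not deviate together (correlation of deviations -0.0937 to 0.107), so the replicate numbers were not taken as pairs.

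The sign of a difference changed with the replicate block for Dusp1 in Mertk-KO against LXR-DKO (0.046, from -0.035). With 1 library left out, the log2 differences that changed sign ranged as follows. In Macrophage-depleted against WT they were -1.13 to 0.67 for Fosb, -0.42 to 1.2 for Nr4a1, -0.64 to 0.0097 for Dusp1 and -0.62 to 0.18 for Btg2. In Mertk-KO against WT they were -0.49 to 1.57 for Egr1 and -0.10 to 0.55 for Dusp1. In LXR-DKO against WT they were -1.15 to 0.54 for Fos, -0.15 to 1.64 for Fosb, -0.85 to 0.057 for Junb, -0.88 to 0.14 for Egr1, -0.39 to 0.085 for Ier2, -0.061 to 0.58 for Dusp1 and -0.21 to 0.59 for Btg2. They were -0.019 to 0.29 for Junb in LXR-DKO against Macrophage-depleted, and -0.21 to 1.85 for Egr1 and -0.28 to 0.21 for Dusp1 in Mertk-KO against LXR-DKO.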
